A study of Rattus norvegicus with 3 samples.

Results

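Immediate early response genes were described in single nuclei of the rat heart. The list held 10 genes, Fos, Fosb, Jun, Junb, Jund, Egr1, Atf3, Ier2, Nr4a1 and Myc, and its members were found by gene symbol. Of these, 9 were matched among the 22250 genes of the count tables, and Ier2 was not analysed here. The question was how their levels varied with cell type and genotype, as a sign of acute stress or of tissue handling.

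Nuclei came from the freshly dissected heart apex, with a portion of septum and of both ventricles, of Sprague Dawley rats at 12 months of age. The 3 genotypes were WT rats, BMD rats with an in-frame deletion of several Dmd exons made by CRISPR, and DMD rats with a Dmd exon deletion that shifts the reading frame. No treatment is named for these hearts, Dmd is altered in every cell of the mutant animals, and how many animals made up a library is not given in the sources used here. There was 1 library per genotype, so no test between genotypes was possible, no p-value is given, and every interval is a 95% interval of counting error that leaves out variation between animals and preparations.

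The values are unique molecular identifiers (UMIs), counts of captured transcript molecules after PCR copies are collapsed. The libraries held between 19215994 and 21609238 UMIs. Barcodes with at least 500 UMIs were taken as nuclei, 10069 for WT, 6898 for BMD and 8212 for DMD, and 13 to 20 barcodes were shared by any pair of libraries. Scrublet, a doublet caller, marked 8.20% (WT), 5.06% (BMD) and 10.6% (DMD) of the nuclei. The WT counts sat in an aggregate table whose header names Cell Ranger 6.0.1, while the BMD and DMD tables name version 4, so genotype, preparation and any difference in counting cannot be told apart. Dmd, the targeted gene, had 16449.9 counts per 1000000 UMIs (CPM) in WT, 20545.5 CPM for BMD and 19434.7 CPM for DMD cardiomyocyte-like nuclei, so its nuclear count did not check the labels.

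Immediate early genes are transcribed within minutes of a stimulus from promoters that need no new protein synthesis. Serum response factor at CArG boxes and CREB at cAMP response elements (CREs) are textbook activators of their promoters. Most members encode transcription factors. Fos and Jun proteins pair to form AP-1, Atf3 can pair with Jun proteins, Egr1 is a zinc finger factor, Nr4a1 an orphan nuclear receptor and Myc a bHLH factor. Mechanical load, growth factors, ischaemia and the dissociation of tissue are all known to induce such genes in the heart.

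The RefSeq promoter table, on the GRCr8 build, held 6 of the 10 members, and the 250 bases before the start were searched on both strands. Fos, Jun, Atf3 and Myc were the members without an entry. Capitals mark every match to a CRE (TGACGTCA), its core (TGACG, which lies within every CRE), an AP-1 site (TGANTCA), an Egr site (GCGNGGGCG) or a CArG box. Of 33469 promoters, 1.59% held a CRE, 18.2% a core, 6.34% an AP-1 site, 4.29% an Egr site and 1.5% a CArG box. The 4 shown belong to members that differ in how their levels divided between cell types and libraries below.
Nr4a1, chr7:134259888-134260137, plus strand: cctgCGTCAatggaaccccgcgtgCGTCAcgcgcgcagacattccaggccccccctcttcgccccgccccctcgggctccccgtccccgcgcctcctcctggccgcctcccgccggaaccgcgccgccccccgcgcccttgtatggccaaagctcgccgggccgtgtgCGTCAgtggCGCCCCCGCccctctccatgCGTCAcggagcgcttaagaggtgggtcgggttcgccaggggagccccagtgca
Jund, chr16:18769772-18770021, minus strand: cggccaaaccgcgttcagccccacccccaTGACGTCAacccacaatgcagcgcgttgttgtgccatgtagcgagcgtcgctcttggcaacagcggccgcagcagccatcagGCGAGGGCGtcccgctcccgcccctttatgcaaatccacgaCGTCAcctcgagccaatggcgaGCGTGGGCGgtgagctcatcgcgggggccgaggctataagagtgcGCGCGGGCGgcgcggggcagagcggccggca
Junb, chr19:40080876-40081125, plus strand: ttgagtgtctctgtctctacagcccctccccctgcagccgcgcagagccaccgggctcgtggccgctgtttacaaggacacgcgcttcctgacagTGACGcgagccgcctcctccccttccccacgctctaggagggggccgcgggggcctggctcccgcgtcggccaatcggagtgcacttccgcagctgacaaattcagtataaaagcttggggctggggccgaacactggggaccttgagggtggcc
Egr1, chr18:26736828-26737077, plus strand: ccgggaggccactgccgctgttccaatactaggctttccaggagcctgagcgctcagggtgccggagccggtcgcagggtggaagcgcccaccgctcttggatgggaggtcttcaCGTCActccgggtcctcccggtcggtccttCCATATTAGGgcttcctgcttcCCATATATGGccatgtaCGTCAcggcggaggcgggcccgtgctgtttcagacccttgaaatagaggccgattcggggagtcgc
Egr1 held 2 CArG boxes, at bases -105 to -96 (CCATATTAGG) and -83 to -74 (CCATATATGG) from the start, beside CRE cores. Nr4a1 held 4 CRE cores and 1 Egr site. Jund held 1 full CRE, at -221 to -214, a further core outside it and 3 Egr sites, and Junb held 1 core. Of the windows not shown, that of Fosb held no match to any of these motifs and that of Ier2 held 1 full CRE. No AP-1 site matched in the 6 windows. These matches are a description of the letters in each window.

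Nuclei were grouped by clustering without the members and without other response genes, and clusters were named from marker lists. Cardiomyocyte-like nuclei formed a single cluster of 2052 WT, 1535 BMD and 1096 DMD nuclei, in which 9 of the 9 markers found, among them Myh7, Tnnt2 and Ryr2, were raised. Fibroblast-like nuclei numbered 3557, 1664 and 2371, endothelial-like nuclei 1591, 1552 and 2017, and macrophage-like nuclei 668, 572 and 475 for WT, BMD and DMD. For each class and library, UMIs of a gene were summed and divided by all UMIs of those nuclei. That class total lay between 571129 UMIs in DMD macrophage-like nuclei and 6673184 UMIs in BMD cardiomyocyte-like nuclei. Levels are compared for a gene between libraries and classes, not between genes.

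Cardiomyocyte-like nuclei of the BMD library held the highest levels of the early response genes in that class, DMD lay between, and WT was lowest. Summed over the 9 genes, the level was 97.4 CPM for WT (95% Poisson interval 89.9 to 105), 362 CPM for BMD (348 to 377) and 214 CPM for DMD (199.9 to 229). The sum was 3.72-fold that of WT in BMD (3.41 to 4.07) and 2.20-fold in DMD (1.98 to 2.44). DMD stood at 0.591-fold of BMD (0.546 to 0.640). The 3 intervals did not overlap. Without Fos, the member that differed most, the sum was still 3.28-fold of WT in BMD and 2.11-fold in DMD.

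The excess was not even over cardiomyocyte-like nuclei. At Leiden resolution 1.0 they fell into a pair of clusters that the libraries filled differently, an alternative chosen with the results in view. The cluster led by Myh6, the fast myosin of adult rodent ventricle, held 1828 WT, 741 BMD and 691 DMD nuclei. Its summed level was 75.9 CPM for WT (68.8 to 83.4), 405 CPM for BMD (382 to 429) and 204 CPM for DMD (186 to 223), with log2 ratios over WT of 2.42 and 1.43. The cluster led by Hs3st2, with Xirp2, Nppa, Nppb and Gadd45g among its leading genes, held 202 WT, 786 BMD and 377 DMD nuclei. There the summed level was 247 CPM for WT (212 to 285), 326 CPM for BMD (308 to 345) and 228 CPM for DMD (204 to 254), so that DMD overlapped WT, and the log2 ratios were 0.40 and -0.12. Within the class, the sum thus depended on which cluster was counted, and most WT nuclei lay in the first. Fos kept its direction in both, with log2 ratios over WT of 4.20 for BMD and 1.99 for DMD in the Myh6-led cluster and 3.82 and 2.68 in the other, where WT had 2 Fos UMIs.

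Fos (ENSRNOG00000008015), the AP-1 subunit induced first in many tissues, had 27 UMIs from WT, 379 from BMD and 68 from DMD cardiomyocyte-like nuclei. These counts gave 4.21 CPM for WT (2.77 to 6.12), 56.8 CPM for BMD (51.2 to 62.8) and 17.2 CPM for DMD (13.4 to 21.8). The intervals were apart in all 3 libraries. The log2 ratio over WT was 3.76 for BMD (3.19 to 4.38) and 2.03 for DMD (1.37 to 2.73), which placed Fos 8th and 76th from the top of 10169 genes with at least 50 UMIs.

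Fosb (ENSRNOG00000046667), a Fos paralog, was sparse, with 9 UMIs from WT, 63 from BMD and 6 from DMD. Its level was 1.40 CPM for WT, 9.44 CPM for BMD and 1.52 CPM for DMD, so that BMD stood apart and the WT and DMD intervals overlapped. The log2 ratio over WT was 2.75 for BMD (1.74 to 3.95) and 0.12 for DMD (-1.66 to 1.77). The gene reached 50 UMIs in all only through BMD, so its ratio there had to be high.

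Jun (ENSRNOG00000026293), a partner of Fos proteins in AP-1, had 31.3 CPM for WT, 115 CPM for BMD and 77.7 CPM for DMD. These came from 201, 769 and 307 UMIs. All 3 intervals were apart, with log2 ratios over WT of 1.88 for BMD (1.65 to 2.11) and 1.31 for DMD (1.05 to 1.58). Junb (ENSRNOG00000042838), a Jun paralog that often restrains Jun, had 24.0, 84.4 and 44.0 CPM for WT, BMD and DMD. Its log2 ratios over WT were 1.81 for BMD (1.55 to 2.08) and 0.88 for DMD (0.56 to 1.20).

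Jund (ENSRNOG00000019568), the Jun family member present in most resting cells, differed less. It had 11.4 CPM for WT, 22.9 CPM for BMD and 17.7 CPM for DMD. The log2 ratios over WT were 1.01 for BMD (0.60 to 1.43) and 0.64 for DMD (0.15 to 1.13). The ratio of DMD over BMD had an interval that included 0, from -0.80 to 0.05. Within each cluster of Leiden resolution 1.0 the Jund intervals of the libraries overlapped. Its levels for WT, BMD and DMD were 9.77, 11.3 and 14.0 CPM in the Myh6-led cluster. They were 17.4, 31.1 and 23.4 CPM in the Hs3st2-led one. Atf3 (ENSRNOG00000003745), a stress-induced factor, had 20 UMIs from WT, 68 from BMD and 24 from DMD, or 3.12, 10.2 and 6.07 CPM. Its log2 ratios over WT were 1.71 for BMD (0.97 to 2.51) and 0.96 for DMD (0.05 to 1.90). Within each of these clusters the Atf3 intervals of the libraries overlapped too. For WT, BMD and DMD its levels were 1.60, 3.53 and 4.11 CPM in the Myh6-led cluster and 13.4, 14.6 and 8.95 CPM in the Hs3st2-led one.

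Outside AP-1, Nr4a1 (ENSRNOG00000007607) had 13.4 CPM for WT, 40.6 CPM for BMD and 31.9 CPM for DMD, with log2 ratios over WT of 1.60 for BMD (1.24 to 1.97) and 1.25 for DMD (0.84 to 1.66). Myc (ENSRNOG00000004500) had 4.67, 17.5 and 12.7 CPM. Its log2 ratios over WT were 1.91 for BMD (1.32 to 2.54) and 1.44 for DMD (0.76 to 2.14). Its DMD over BMD interval, from -0.98 to 0.02, included 0. In the Myh6-led cluster the WT intervals of Jun, Junb, Nr4a1 and Myc lay below those of both mutants. In the Hs3st2-led cluster they overlapped those of both mutants. Myc was there at 28.2 CPM for WT, 23.8 CPM for BMD and 19.3 CPM for DMD. Egr1 (ENSRNOG00000019422), with its 2 CArG boxes, was the exception among the members over all cardiomyocyte-like nuclei. It had 25 UMIs from WT, 35 from BMD and 21 from DMD, or 3.89, 5.24 and 5.31 CPM. Both intervals of its log2 ratio over WT included 0, from -0.35 to 1.23 for BMD and from -0.46 to 1.34 for DMD. Within the clusters Egr1 differed in opposite directions. Its levels for WT, BMD and DMD were 1.60, 7.40 and 4.93 CPM in the Myh6-led cluster. There the WT interval lay below that of BMD and overlapped that of DMD. They were 21.5, 3.65 and 4.82 CPM in the Hs3st2-led cluster, where the WT interval lay above those of both mutants.

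**Figure D1:**
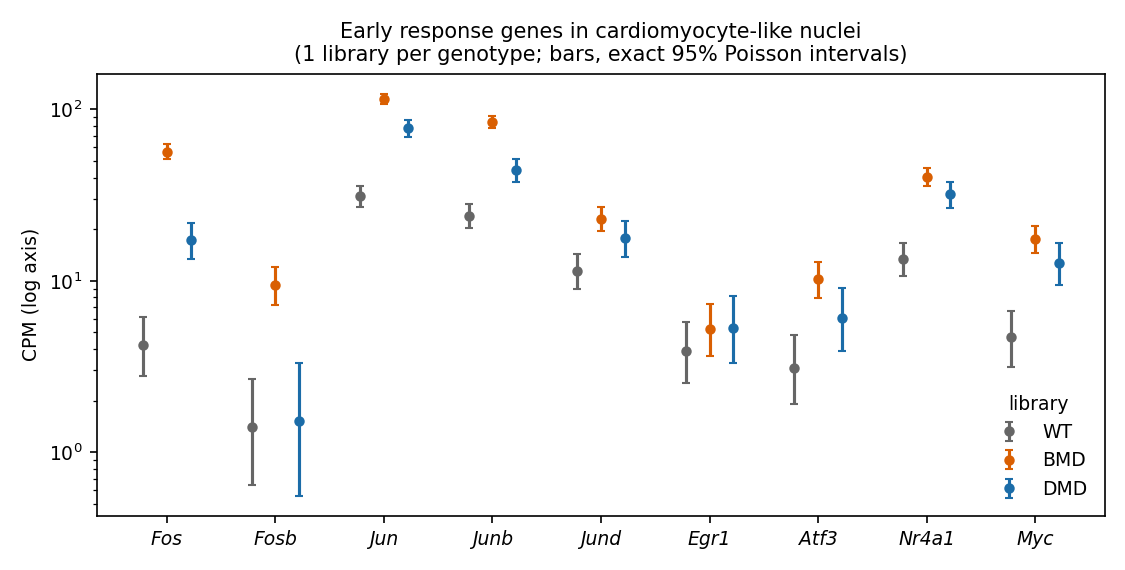
Level of each of the 9 genes in cardiomyocyte-like nuclei, in CPM on a log axis, with a point per library and bars for exact 95% Poisson intervals. Fos goes from 4.21 CPM for WT to 56.8 CPM for BMD with 17.2 CPM for DMD, while the 3 intervals of Egr1 over all these nuclei overlap.

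All 9 members passed the minimum of 50 UMIs in cardiomyocyte-like nuclei, but Fosb, Egr1 and Atf3 did so only through BMD. In BMD, 8 of 9 were at least 2-fold above WT, where 3.35% of the 10169 genes were, and 0 of 9 were at least 2-fold below, where 2.52% were. In DMD, 4 of 9, namely Fos, Jun, Nr4a1 and Myc, were at least 2-fold above WT against 5.1% of all genes, and 0 of 9 were below against 2.92%. With a minimum of 200 UMIs 5 members were left, Fos, Jun, Junb, Jund and Nr4a1, of which 5 were 2-fold above in BMD against 2.23% of 7400 genes and 3 were above in DMD against 2.77%. Of these, Fos and Jund reached 200 UMIs only through BMD, with 95 and 143 UMIs without it, so the minimum favoured high ratios for them there. The median log2 ratio of the members was 1.81 for BMD and 0.96 for DMD, beside -0.06 and -0.03 over all genes tested. Both comparisons share the WT library, and genotype and preparation of a library cannot be told apart.

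The libraries differed in the number of nuclei with a member UMI as well as in the sum. Without thinning, 20.8% of WT, 56.0% of BMD and 41.4% of DMD cardiomyocyte-like nuclei held a UMI of any of the 9 genes, at median depths of 2760.5, 3754 and 3220.5 UMIs. Among nuclei of 1000 to 3000 UMIs only, the summed members were higher than WT by 2.18 (BMD) and 1.44 (DMD) on the log2 scale. After each nucleus was thinned to 500 UMIs, which left out none, the shares were 4.63% for WT (exact interval 3.76 to 5.63%), 16.5% for BMD (14.7 to 18.4%) and 9.85% for DMD (8.15 to 11.8%). Thinned shares for Fos alone were 0.195% for WT (4 of 2052 nuclei), 3.71% for BMD (57 of 1535) and 1.0% for DMD (11 of 1096). For Jun they were 1.56%, 6.25% and 2.92%. Fos was sparse in T or B cell-like nuclei. There 0 of 372 WT nuclei had a Fos UMI. A floor of 3 nuclei, given here in place of an exact interval, would be a share of 0.806% (3 of 372). The counts were 1 of 266 for BMD (0.376%) and 0 of 311 for DMD (the same floor, 0.965%). Median depths of T or B cell-like nuclei were 744.5, 777 and 784 UMIs.

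Without the top 1% of nuclei by member share the log2 ratio of the sum was 2.07 for BMD and 1.27 for DMD. Larger groups of the nuclei richest in these genes were not left out. The nuclei in the top 10% by member UMIs held 64.6% of all member UMIs in WT, 48.2% for BMD and 51.3% for DMD, and no nucleus held more than 38. Nuclei with UMIs of 3 or more members after thinning numbered 2 for WT, 4 for BMD and 0 for DMD. Whether other members were seen in the same nuclei as Fos depended on depth. Among BMD nuclei thinned to 500 UMIs, Jun was seen in 8.77% of 57 nuclei with a Fos UMI (2.91 to 19.3%) and in 6.16% of 1478 nuclei without (4.99 to 7.51%), and Nr4a1 in 1.75% and 2.44%. Thinned to 1000 UMIs, Jun was seen in 23.1% of 91 BMD nuclei with a Fos UMI and 10.2% of 1402 without, and Nr4a1 in 17.6% and 3.99%. Junb was the member whose intervals were apart at both depths in BMD, at 12.3% (5.08 to 23.7%) and 3.45% (2.58 to 4.51%) for 500 UMIs. In DMD, with 19 Fos nuclei at 1000 UMIs, Jun was seen in 10.5% of them and in 9.06% of the rest. Nr4a1 was there in 26.3% (9.15 to 51.2%) and 2.32% (1.47 to 3.46%). At 500 UMIs, with 11 Fos nuclei in DMD, Junb was in 27.3% (6.02 to 61.0%) and 1.84% (1.13 to 2.83%). The DMD intervals of Nr4a1 at 500 UMIs and of Junb at 1000 UMIs overlapped. In WT, with 8 Fos nuclei at 1000 UMIs, the intervals were apart for Nr4a1 and Junb and overlapped for Jun. The nuclei of each comparison came from 1 library, and the shares are a description.

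Nuclei with a UMI of the natriuretic peptide genes Nppa or Nppb, markers of strained myocardium, were compared with the rest. In WT the summed members were at 163 CPM with such a UMI and 83.5 CPM without, in BMD at 392 and 333 CPM, and in DMD at 224 and 205 CPM. The order BMD, DMD, WT held on both sides of that split. Nuclei without such a UMI after thinning can still hold one at full depth.

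**Figure D2:**
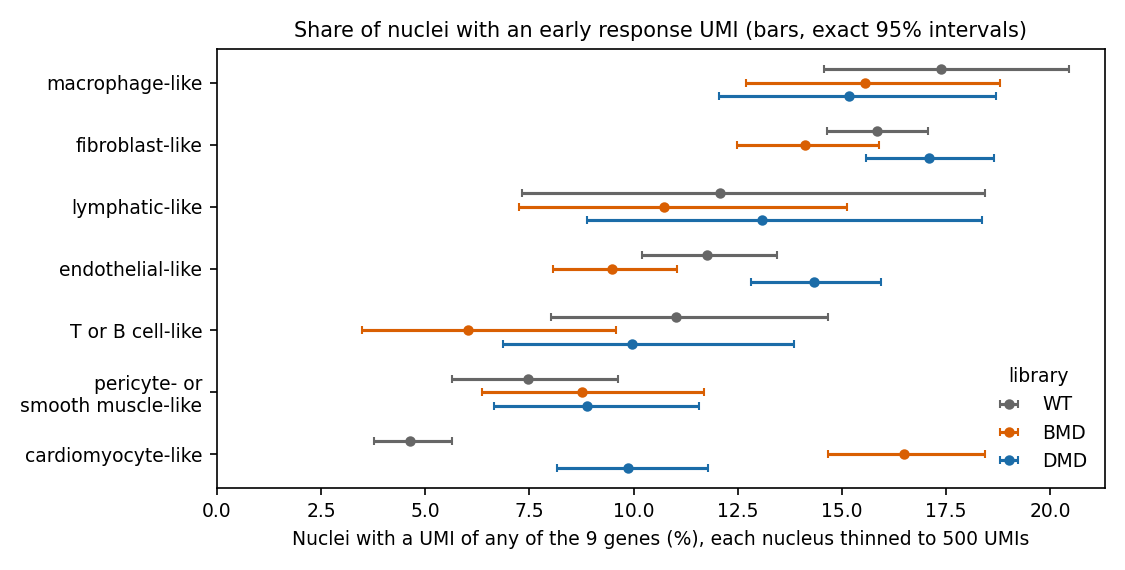
Share of nuclei with a UMI of any of the 9 genes after thinning to 500 UMIs, in percent, for the 7 classes with at least 100 nuclei in every library, with exact 95% intervals. Cardiomyocyte-like nuclei go from 4.63% for WT to 9.85% for DMD and 16.5% for BMD, while fibroblast-like nuclei lie between 14.1% and 17.1%.

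Fibroblast-like nuclei had similar sums in all 3 libraries, at 397 CPM for WT (379.8 to 415), 386 CPM for BMD (364 to 409.5) and 420.1 CPM for DMD (399 to 442). The log2 ratio of the sum over WT was -0.04 for BMD (-0.15 to 0.07) and 0.08 for DMD (-0.02 to 0.18). Below that even sum, members went in different directions. Jund had 88.1 CPM for WT, 44.5 CPM for BMD and 57.0 CPM for DMD, lower in both mutants, with log2 ratios of -0.98 (-1.28 to -0.70) and -0.63 (-0.88 to -0.38). Fos was higher in both, at 10.4, 20.1 and 17.1 CPM, with log2 ratios of 0.94 (0.37 to 1.51) and 0.71 (0.15 to 1.28). Junb was at 92.8, 127 and 109 CPM, and Jun was lower in BMD at 43.8 CPM against 68.4 CPM for WT. Nr4a1 had 21.9 CPM for WT, 26.5 CPM for BMD and 40.4 CPM for DMD. Egr1 was far higher than in cardiomyocyte-like nuclei, at 92.0, 93.8 and 120.5 CPM. Of the 7 members with at least 50 UMIs, 0 were 2-fold above WT in BMD (2.59% of 10728 genes were) or in DMD (2.62%), and 0 were 2-fold below (3.14% and 1.24%).

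At the finer Leiden resolution of 1.0, the cluster of 4320 nuclei led by Abca8a and Bmper went unnamed, which left 1050 WT, 974 BMD and 1182 DMD fibroblast-like nuclei, led by Ltbp2, Tnc and Postn. In these the log2 ratio of the summed members was -0.36 for BMD and -0.30 for DMD. The even sum thus depended on which fibroblasts were counted.

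Endothelial-like nuclei had sums of 280.0 CPM for WT (253 to 309), 214 CPM for BMD (193 to 236) and 322 CPM for DMD (298 to 347). BMD was lower than WT, with a log2 ratio of -0.39 (-0.59 to -0.18), and DMD slightly higher, at 0.20 (0.02 to 0.39). Jun was at 111 CPM for WT, 66.3 CPM for BMD and 131 CPM for DMD, and Jund, at 88.3, 51.2 and 86.2 CPM, followed the same order for BMD and WT. Nr4a1 had 8.68, 12.4 and 18.8 CPM, from 12, 23 and 39 UMIs, and was the only tested member 2-fold above WT, in DMD (1 of 5, against 1.89% of 9009 genes). It reached 50 UMIs only through DMD, so the minimum favoured a high ratio there. In BMD 0 of 5 were 2-fold above (1.72% of genes), and 0 of 5 were 2-fold below in BMD (2.03%) or DMD (0.955%).

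Macrophage-like nuclei showed the opposite order. The summed level was 471 CPM for WT (425 to 521), 269 CPM for BMD (232 to 309.6) and 341 CPM for DMD (295 to 393), with log2 ratios over WT of -0.81 (-1.07 to -0.56) and -0.47 (-0.72 to -0.21). Atf3 had 64.2 CPM for WT, 41.6 CPM for BMD and 19.3 CPM for DMD, from 52, 30 and 11 UMIs, with a log2 ratio of -1.74 for DMD (-2.82 to -0.78). Egr1 was at 44.4, 22.2 and 19.3 CPM, and Nr4a1 at 48.1, 23.6 and 29.8 CPM. Jund was at 97.5, 51.3 and 43.8 CPM. Of 7 members tested, 0 were 2-fold above WT in BMD (2.73% of 6853 genes) or DMD (4.68%), while 2 for BMD, Egr1 and Nr4a1, and 3 for DMD, Jund, Egr1 and Atf3, were 2-fold below (3.87% and 2.92% of genes). Egr1, Nr4a1 and Atf3 reached 50 UMIs only with the WT counts, so the minimum favoured low ratios for them. With a minimum of 200 UMIs 0 members were left. The counts are small, and the mitochondrial share of these nuclei was 5.85% (WT), 3.60% (BMD) and 4.26% (DMD), with Scrublet marks on 4.94%, 4.72% and 11.8% of them. Without nuclei over 5% mitochondrial UMIs, the log2 ratio of the sum shrank to -0.34 for BMD and -0.03 for DMD, and at Leiden resolution 1.0 it was -0.43 and -0.30. At that resolution the libraries filled the larger macrophage-like clusters differently. The cluster led by Spp1 and Wdfy4 held 391 WT, 165 BMD and 187 DMD nuclei, and that led by F13a1, Cd163 and Mrc1 held 266, 403 and 276. The part of this difference in the sums was not tested.

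**Figure D3:**
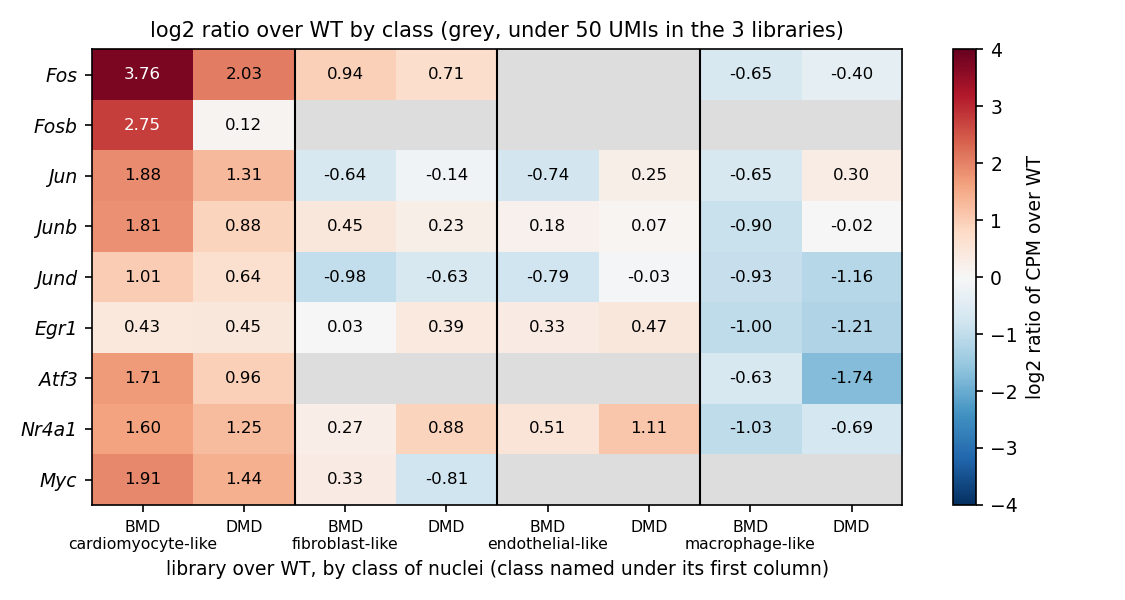
log2 ratio of CPM over WT for each gene, with a column for BMD and for DMD in each of 4 classes, red above and blue below WT. Ratios of cardiomyocyte-like nuclei reach 3.76 for Fos in BMD, and those of macrophage-like nuclei go down to -1.74 for Atf3 in DMD.

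The order of classes differed between libraries. In WT, cardiomyocyte-like nuclei had the lowest sum of all named classes, and its interval ended at 105 CPM, below that of the next class, pericyte- or smooth muscle-like nuclei (174 CPM, 145 to 208). T or B cell-like (223 CPM, 174 to 280.5), endothelial-like, Schwann cell-like (322 CPM, 187 to 515) and lymphatic-like nuclei (351 CPM, 265 to 455) followed, and each overlapped its neighbour in that order. Fibroblast-like nuclei overlapped the lymphatic-like ones, and macrophage-like nuclei were higher than fibroblast-like ones, with intervals apart. In BMD, the cardiomyocyte-like sum of 362 CPM overlapped that of fibroblast-like nuclei and was above those of endothelial-, macrophage-, lymphatic-, pericyte- or smooth muscle- and T or B cell-like nuclei, with intervals apart. In DMD it again lay among the lower classes, overlapping the pericyte- or smooth muscle-like (193 CPM), T or B cell-like (207 CPM) and lymphatic-like nuclei (279 CPM).

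Pericyte- or smooth muscle-like nuclei had no Fos UMI in WT, 17 for BMD and 8 for DMD, from 724, 468 and 552 nuclei. Against a floor of 3 counts in the WT library, Fos was at least 7.25-fold higher in BMD and at least 3.06-fold higher in DMD with the mutant counts taken as measured. With their counting error, the exact interval of the ratio began at 5.28-fold for BMD and 1.96-fold for DMD. Their summed level did not stand apart between libraries, at 174, 230.3 and 193 CPM with overlapping intervals. A small cluster led by S100a9, S100a8 and the neutrophil granule genes Camp and Ngp had the highest sums. These were 1422 CPM for WT (522 to 3095), 1410.2 CPM for BMD (958 to 2002) and 1092 CPM for DMD (825 to 1418). This cluster rested on 6, 30 and 74 nuclei, and Junb supplied 4, 21 and 30 of its 6, 31 and 56 member UMIs.

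**Figure D4:**
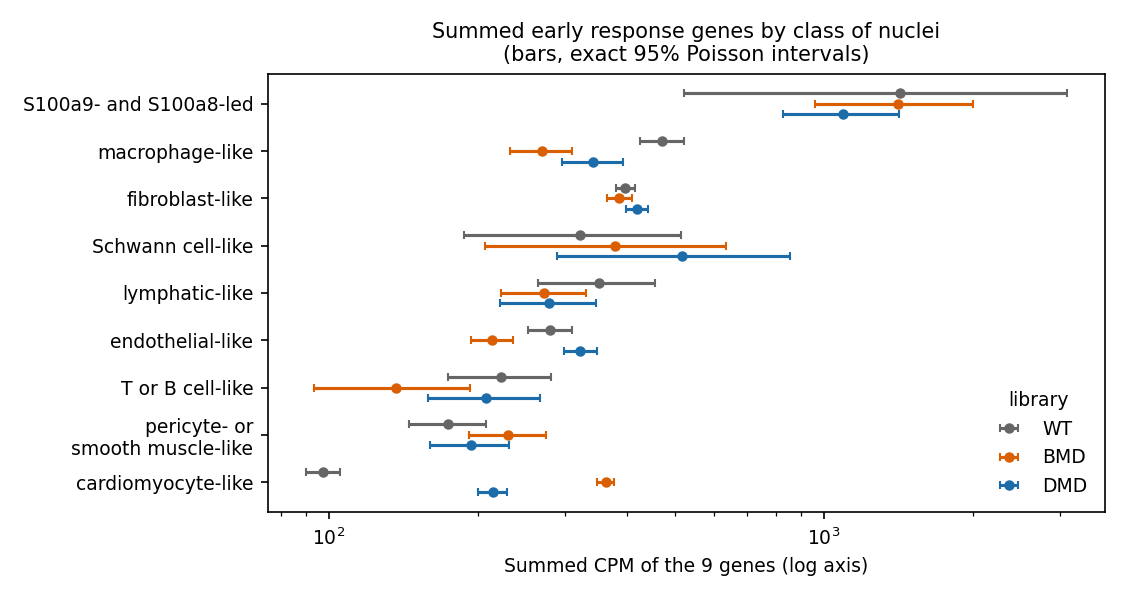
Summed CPM of the 9 genes by class of nuclei on a log axis, with a point per library and exact 95% Poisson intervals. Cardiomyocyte-like nuclei go from 97.4 CPM for WT to 362 CPM for BMD, while the highest of the 3 macrophage-like sums is that of WT, at 471 CPM.

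Other genes of the response were taken from lists chosen with the design, and only genes with at least 50 UMIs in the class were compared. In cardiomyocyte-like nuclei, 9 of 20 other early response genes that are not transcription factors were at least 2-fold above WT in BMD (3.35% of all genes). For DMD 3 of 20 were (5.1%). In either mutant 0 were below (2.52% and 2.92% of all genes), and the median log2 ratios were 0.88 and 0.35. Those above in both were Gadd45g, a growth arrest gene, at 76.6 CPM for WT, 415 CPM for BMD and 186 CPM for DMD, the matricellular gene Ccn1 at 18.5, 86.9 and 49.6 CPM, and the antiproliferative gene Btg2 at 58.4, 154 and 117 CPM. Dusp1, a phosphatase that shuts off MAP kinases, named after its values were seen, was at 41.6, 123 and 80.5 CPM. Gadd45g was also a leading gene of the Hs3st2-led cluster, which the libraries filled differently. Genes of this and the other lists were not compared within clusters of resolution 1.0.

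The other AP-1 and early transcription factors did not share this. Of 14 tested in cardiomyocyte-like nuclei, 1 was 2-fold above and 1 below WT in each mutant, with median log2 ratios of -0.01 and 0.05. Over all genes tested, 3.35% (BMD) and 5.1% (DMD) were above, and 2.52% and 2.92% were below. The same shares stand beside the upstream and Myc network counts that follow. In lists this short a count of 1 cannot be told from those shares. Fosl2, an AP-1 subunit, was at 26.0 CPM for WT, 26.1 CPM for BMD and 15.4 CPM for DMD, a gene named after its values were seen. Per1, a clock gene with a CREB-responsive promoter, was the gene below in both, at 14.3, 5.84 and 6.58 CPM. Of 20 genes upstream, the kinases and factors that switch early genes on, 0 were above and 1 was below in each mutant, Map2k6, a p38 kinase activator, at 86.4, 18.9 and 25.8 CPM. Of 8 genes of the Myc network 0 passed 2-fold either way.

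Some heat shock and cell stress genes were also above WT. Of 11 tested in cardiomyocyte-like nuclei, 6 were at least 2-fold above in BMD (3.35% of all genes) and 3 for DMD (5.1%). In either mutant 0 were below (2.52% and 2.92%), and the median log2 ratios were 1.03 and 0.36. Hspa1b, an inducible chaperone, had 12 UMIs from WT, 295 from BMD and 44 from DMD, or 1.87, 44.2 and 11.1 CPM. Its log2 ratios over WT were 4.56 and 2.57. Hspb1 had 74.9, 429 and 167 CPM, and Hspa8 25.4, 114 and 56.4 CPM. In the other classes few genes of these lists were past 2-fold the same way in both mutants. In fibroblast-like nuclei Hspa1b (2.25, 11.2 and 8.71 CPM) and Egr2 (3.69, 14.95 and 13.8 CPM) were above, in endothelial-like nuclei Ccn1 (7.24, 15.1 and 17.8 CPM) was above, and in macrophage-like nuclei Hspb1 (12.3, 48.5 and 31.5 CPM) was above while Cebpb (236, 84.6 and 116 CPM) and Srf (56.8, 18.0 and 19.3 CPM) were below. Of these, Hspa1b, Ccn1 and Hspb1 reached 50 UMIs only with each mutant's counts and Srf only with those of WT. Genes tested in their lists numbered 11 (Hspa1b), 21 (Egr2), 17 (Ccn1), 8 (Hspb1), 9 (Cebpb) and 19 (Srf). Over all genes, 2.59% (BMD) and 2.62% (DMD) were above WT in fibroblast-like and 1.72% and 1.89% in endothelial-like nuclei. In macrophage-like nuclei 2.73% and 4.68% were above, and 3.87% and 2.92% below. Single genes in lists this short cannot be told from those shares.

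**Figure D5:**
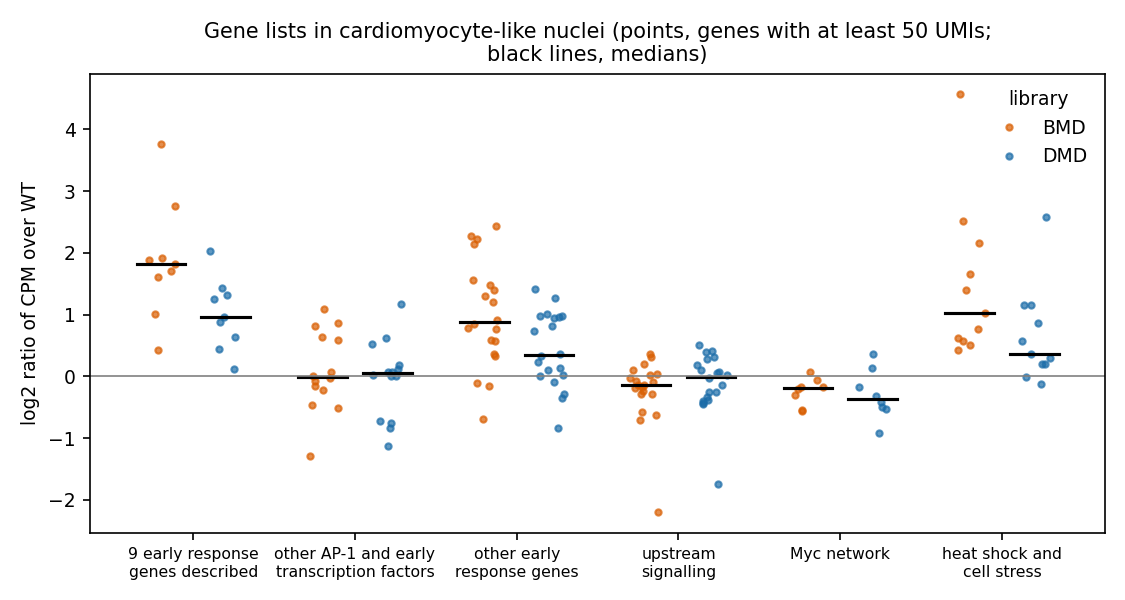
log2 ratio over WT in cardiomyocyte-like nuclei for the 9 genes and 5 other lists, with a point per gene and black lines at the medians. Medians of the 9 genes are 1.81 for BMD and 0.96 for DMD, against -0.01 and 0.05 for the other AP-1 and early transcription factors.

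Free RNA and quality measures also differed between the libraries. In barcodes with at most 50 UMIs, which hold mostly RNA outside nuclei, the summed members were at 419.5 CPM for WT, 610.4 CPM for BMD and 600.3 CPM for DMD, and Fos was at 11.4, 55.2 and 29.6 CPM, from 18, 35 and 21 UMIs. From markers of other classes, free RNA made up an estimated 3.26% (WT), 5.70% (BMD) and 4.55% (DMD) of cardiomyocyte-like UMIs. Subtracting it left log2 ratios of the summed members of 2.01 for BMD and 1.18 for DMD. The mitochondrial share of cardiomyocyte-like nuclei was 0.25% for WT, 0.37% for BMD and 0.50% for DMD, and Scrublet marked 1.32%, 0.85% and 5.47% of them. Of 11 marker lists of other classes, 4 were higher in BMD than in WT and 8 for DMD, and 83 of their 86 genes had a UMI. The fibroblast list stood at 194 CPM for WT, 142 CPM for BMD and 365 CPM for DMD, the endothelial list at 112, 166 and 199 CPM and the macrophage list at 46.9, 42.0 and 57.5 CPM. The monocyte list, which marks the S100a9-led cluster, was at 35.0, 26.4 and 114 CPM, and the pericyte or smooth muscle list at 1008, 1018 and 684 CPM. With Scrublet doublets removed, the log2 ratios of the summed members were 1.89 for BMD and 1.12 for DMD, and without nuclei over 5% mitochondrial UMIs they were 1.90 and 1.14. The part of the other classes' markers in the higher levels was not tested.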

How the data were processed

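Single-nucleus RNA sequencing was analysed for 3 libraries, grouped by the genotype labels. Per the labels and methods, nuclei were sorted and processed with a 10x Genomics 3′ kit, while the results text of the study names a 5′ one. The submitters' processing notes name Cell Ranger and the rn6 build, and whether introns were counted is not given in the sources used here. The authors deposited UMI counts per gene for all barcodes. WT was read from the barcodes with suffix -3 of the aggregate table, in which BMD and DMD held 76.1% and 92.9% of the UMIs of their own tables. Whether the WT counts in that table had also been reduced is not given in the sources used here.

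Nuclei of all libraries were clustered together in scanpy 1.11.5 with igraph 0.11.9 (2000 variable genes, 30 components, 15 neighbours, Leiden resolution 0.5). Mitochondrial, sex and response genes were left out. A cluster was named when at least 3 markers were 2-fold above all other nuclei with at least 10 UMIs, unless its leading genes went against the name. A cluster that met the monocyte rule but was led by S100a9, S100a8 and neutrophil granule genes was called by its leading genes. Scrublet doublets were kept in the main setting. Class sums were scaled to CPM, with exact Poisson intervals for sums, exact conditional binomial intervals for ratios and Clopper-Pearson intervals for shares (scipy 1.17.1). They cover counting error only. The counting functions were tested on simulated data.

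All members were described. From the other lists, genes were named when at least 2-fold from WT the same way in both mutants, up to 4 per list, class and direction, and genes outside this rule are marked. Members and lists were chosen with earlier results of these data known. Alternatives were the nucleus number of the methods, at least 1000 UMIs, removal of doublets or of nuclei over 5% mitochondrial UMIs, resolution 1.0, clustering with the response genes, free RNA subtraction, TMM scaling (edgeR 4.0.16), the mean over nuclei, all nuclei, the aggregate counts, leaving out the top 1% of nuclei, other thinning and at least 200 UMIs per gene. The restriction to nuclei of 1000 to 3000 UMIs and the values within each cardiomyocyte-like cluster of resolution 1.0 were added after the data were seen.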

Additional observations from a re-analysis of the deposited data

Results flagged for a closer look

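The summed early response genes went in opposite directions in cardiomyocyte-like and macrophage-like nuclei. The log2 ratio over WT was 1.90 for BMD and 1.14 for DMD cardiomyocyte-like nuclei, and -0.81 for BMD and -0.47 for DMD macrophage-like nuclei. With 1 library per genotype the difference between the classes was not tested. The macrophage-like ratios were -0.34 and -0.03 without nuclei over 5% mitochondrial UMIs, and the cardiomyocyte-like ratios were 0.40 and -0.12 within the Hs3st2-led cluster. Macrophage-like clusters of resolution 1.0 were also filled differently by the libraries.

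A difference in Fos also appeared outside the nuclei. In barcodes with at most 50 UMIs, its log2 ratio over WT was 2.27 for BMD (1.41 to 3.18) and 1.37 for DMD (0.39 to 2.37).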

How the results depend on the processing

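Replicates could not be left out in turn, and no paired analysis was possible because each genotype has 1 library. The log2 ratio of the summed members in cardiomyocyte-like nuclei stayed between 1.87 and 2.18 for BMD and between 1.12 and 1.44 for DMD over 12 alternatives, with the 13th, all nuclei together, at 0.42 and 0.36. Within the Myh6-led cluster of resolution 1.0, added after the data were seen, it was 2.42 and 1.43, and within the Hs3st2-led cluster 0.40 for BMD and, reversed, -0.12 for DMD. Over the first 12, 108 of 108 member ratios were above 0 for BMD and 106 of 108 for DMD, the exceptions both being Fosb.

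Other values of cardiomyocyte-, fibroblast- and endothelial-like sums outside the counting interval of the main setting were as follows. With all nuclei, whose classes differ in number between libraries, the sum also stood at 0.42 for BMD and 0.36 for DMD against the fibroblast-like values and was reversed at 0.42 against the endothelial-like value in BMD. With the top 1% of nuclei left out the cardiomyocyte-like ratio in BMD was 2.07, and with nuclei of 1000 to 3000 UMIs it was 2.18 for BMD and 1.44 for DMD. At resolution 1.0 the fibroblast-like ratios were -0.36 for BMD and -0.30 for DMD, and free RNA subtraction moved the endothelial-like ratio in BMD to -0.64.

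Free RNA subtraction moved the macrophage-like ratio in BMD to -1.08, and without nuclei over 5% mitochondrial UMIs it was -0.34 for BMD and -0.03 for DMD, with -0.43 for BMD at resolution 1.0.

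Single members reversed with all nuclei, namely Jund in cardiomyocyte-like nuclei (-0.64 for BMD, -0.15 for DMD), Atf3 there in DMD (-0.32), Jun in fibroblast-like and endothelial-like nuclei of BMD (0.62 for both) and Myc in fibroblast-like nuclei of DMD (0.14). In macrophage-like nuclei all nuclei together reversed the sum (0.42 for BMD, 0.36 for DMD), Jun, Junb and Nr4a1 of BMD (0.62, 0.63 and 0.86) and Egr1 of DMD (0.28). At resolution 1.0, Junb (-0.14) and Egr1 (-0.18) reversed in fibroblast-like nuclei of DMD. In the Hs3st2-led cluster, Fosb (-0.45) and Myc (-0.25) of BMD and Jun (-0.0606), Junb (-0.26), Atf3 (-0.58) and Myc (-0.55) of DMD reversed. Egr1 was lower than WT in both mutants of that cluster, with intervals apart. In the Myh6-led one Egr1 was higher in both mutants, with intervals apart for BMD only. It was not counted as reversed, since its intervals over all cardiomyocyte-like nuclei included no difference. The cause was not tested. Of 1047 values under an alternative, of single members, shares, background and the macrophage-like sum, 931 stayed within the interval of the main setting or within 1.5 times of it, 96 moved and 20 reversed.

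With at least 200 UMIs per gene in place of 50, 165 genes were at least 2-fold above WT in BMD cardiomyocyte-like nuclei and 205 for DMD, in place of 341 and 519, and 106 and 144 were below in place of 256 and 297. The corresponding counts in fibroblast-like nuclei were 121 and 94 above (278 and 281) and 133 and 41 below (337 and 133). In endothelial-like nuclei they were 39 and 43 above (155 and 170) and 34 and 5 below (183 and 86). In macrophage-like nuclei they were 36 and 49 above (187 and 321) and 67 and 35 below (265 and 200), with 0 members left to compare. Members under 50 UMIs in a class could not be compared at this depth.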

Other observations

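By the mean of the members' centred log2 levels over 21 points (7 classes in 3 libraries), the most similar of 11345 other genes was Gpx1, a glutathione peroxidase, with a Pearson r of 0.82. It was at 27.6 CPM for WT, 59.3 CPM for BMD and 60.2 CPM for DMD cardiomyocyte-like nuclei. Abcc3 (0.81), Olr1 (0.76), RGD1311345 (0.75) and Nip7 (0.75) followed. The points share libraries, and the coefficients are a description.

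A cluster of 210 nuclei that the marker lists left unnamed, with S100a8, S100a9 and Lyz2 among its leading genes beside fibroblast markers, held 206 DMD, 4 BMD and 0 WT nuclei. Its summed members were at 683 CPM for DMD (563 to 821), and its mitochondrial share there was 10.9%. The unnamed cluster of 688 nuclei of which Scrublet called about 9 in 10 doublets had sums of 143 CPM for WT, 269 CPM for BMD and 217 CPM for DMD.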
